A study of Mus musculus with 9 samples.

Results

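Primitive streak and mesendoderm genes were read on 9 Affymetrix Mouse Genome 430 2.0 arrays. The set holds 9 genes and is made of every probe set that the platform annotation names for 1 of them alone, which gave 12 of the 45101 probe sets and 9 of the 18193 genes on the array. The genes are the ligands Wnt3, Fgf8 and Fgf17 and the transcription factors Eomes, Mixl1, Gsc, Lhx1, Evx1 and Mesp1. Eomes, Fgf17 and Lhx1 have 2 probe sets each, and the other 6 genes have 1. The arrays come from D3-pOct4 mouse embryonic stem cells grown for 7 days with fetal bovine serum. The first group had no LIF and received 2 µM of the nitric oxide donor DETA/NO. The second had no LIF and no donor, and the third received LIF at 1000 U/ml. LIF, leukemia inhibitory factor, is the cytokine that holds these cells undifferentiated. Each group has 3 arrays, replicates 1, 2 and 3, from passages 31, 33 and 34 of the one line, and the labels do not say whether the cultures were otherwise separate. P-values therefore measure the spread between these arrays, which may be technical.

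In the mouse embryo the primitive streak is the site where epiblast cells leave the epithelium and become mesoderm and endoderm. WNT3 and the TGF-beta family ligand NODAL start it, FGF8 is needed for cells to move away from it, and EOMES, a T-box factor, is needed for both definitive endoderm and the exit of mesoderm. MIXL1, GSC, LHX1 and EVX1 are homeodomain factors of the streak and its derivatives. MESP1 is a basic helix-loop-helix factor of the earliest cardiac mesoderm. In embryonic stem cell cultures these genes are read as signs of exit from pluripotency toward mesendoderm. Brachyury (T) is not analysed here.

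Values are MAS5 signals, a linear intensity scaled by the authors to one target per array. Array medians ran from 13.9 to 23.3 and serve below as a landmark, because detection calls were not used here. They were 20.8 to 23.3 on replicates 1 and 2 with the donor and on LIF replicate 1, called the brighter arrays, and 13.9 to 17.8 on the others. The name refers to the medians alone, since the 90th percentiles were 329 to 337 on these arrays and 334 to 343 on the others. The array labelled no LIF replicate 2 had a high signal of Socs3, a feedback gene of LIF signalling, at 3054, and the array labelled LIF replicate 2 a low one, at 282, so these libraries go against their labels for that gene. The closest pair of arrays joined the donor's replicate 3 to no LIF replicate 1 (r = 0.977 over the log2 signals of the probe sets tested). Results are given below with and without these arrays. All 8 embryonic stem cell markers, among them Pou5f1, Nanog and Sox2, were above the array median on all 9 arrays.

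Most member probe sets had their highest signals on 4 arrays that come from all 3 groups. These were replicates 2 and 3 with the donor, no LIF replicate 1 and LIF replicate 2. They were the 4 highest arrays for 9 of the 12 probe sets, covering Wnt3, Fgf8, Mixl1, Gsc, Evx1 and Mesp1, both probe sets of Lhx1 and 1 of Eomes. Among these, Wnt3, Gsc and both probe sets of Lhx1 were not above the array median on all 4. Of all 29811 probe sets tested, 976 had the same 4 arrays highest (3.27%). The same 4 arrays held the 4 lowest signals for 980 probe sets (3.29%). Those 4 arrays were singled out after the values were seen, and no test was made of them.

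**Figure D1:**
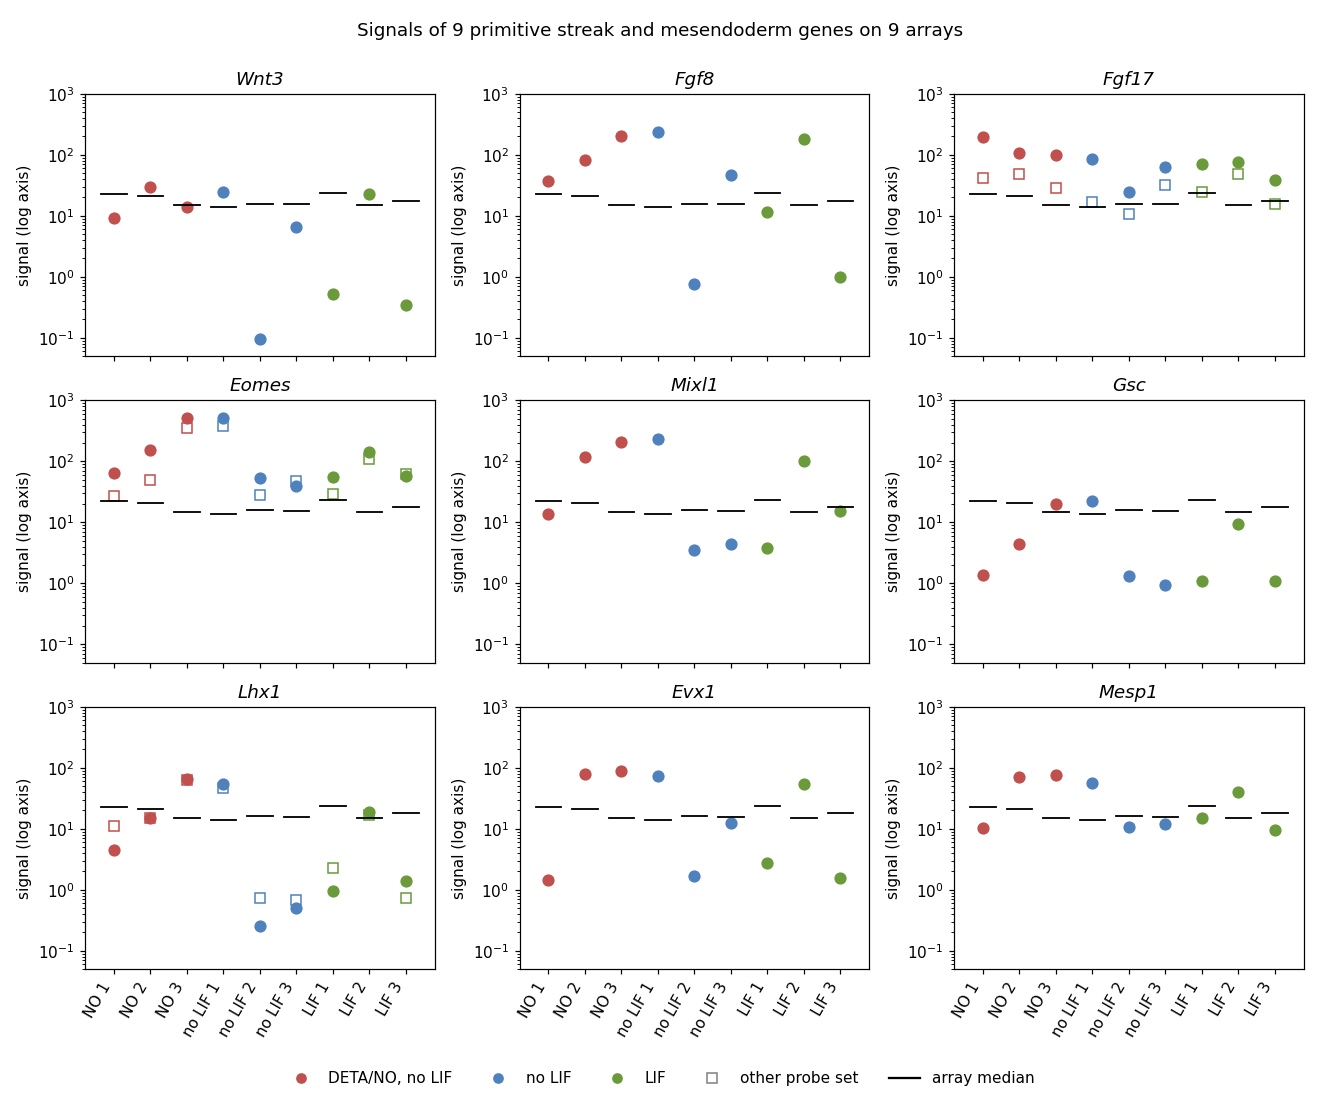
Signal of each gene (log axis) on the 9 arrays, ordered by group and replicate, with NO for the cells given DETA/NO without LIF. Filled circles are the brightest probe set of a gene, open squares its other probe set and black bars the median of each array. Replicates 2 and 3 with the donor, no LIF replicate 1 and LIF replicate 2 carry the highest points in most panels, and each group also holds at least 1 array with low points.

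Counted by array, 3, 7 and 8 of the 9 genes were above the array median in replicates 1, 2 and 3 with the donor. Without LIF the counts were 9, 2 and 3, and with LIF they were 2, 8 and 2. The mean of log2(signal + 3) over the 9 genes was 4.18, 5.78 and 6.52 with the donor, 6.52, 2.97 and 3.87 without LIF and 3.47, 5.76 and 3.25 with LIF. The 3 groups overlap on this measure, and replicate 3 with the donor equals no LIF replicate 1 to the 2 decimals given. In bulk RNA, fewer cells that express a gene and less RNA per cell cannot be told apart.

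Among the ligands, Wnt3 stayed dim throughout. Its signal was 9.33, 29.5 and 13.7 in replicates 1, 2 and 3 with the donor, 24.7, 0.0968 and 6.52 without LIF, and 0.527, 23 and 0.343 with LIF. It was above the array median on replicate 2 with the donor, no LIF replicate 1 and LIF replicate 2, which is 1 array of each group. Its probe set ends in _x_at, Affymetrix's mark for probes that can also match other transcripts, so some of this signal may belong elsewhere.

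Fgf8, which drives cell movement through the streak, ranged from far below the array median to well above it. It read 36.8, 81.3 and 204 with the donor, 234, 0.757 and 46.1 without LIF, and 11.4, 183 and 0.991 with LIF. All 3 donor arrays were above their median, against 2 without LIF and 1 with LIF. Its lowest readings, on no LIF replicate 2 and LIF replicate 3, lie below every array median, where no fold can be read with precision.

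Fgf17, a close relative of Fgf8, followed the other members only in part. Its brighter probe set, 1421523_at, read 199, 107 and 99.3 with the donor, 85.4, 24.9 and 62.4 without LIF, and 70, 75.2 and 39 with LIF. This probe set ordered the arrays within no LIF and within LIF as Fgf8 did, and was likewise lowest on no LIF replicate 2. Within the donor group it ran in the reverse order to Fgf8, and it was highest on replicate 1 with the donor. It was above the median on all 9 arrays, and the 3 donor arrays were the 3 highest, so on the signal scale they overlapped neither other group. The margin over no LIF replicate 1 was narrow. Its percentile on that array was 75.2, against 75.7 on the donor's replicate 2, and the medians of these arrays were 13.9 and 20.8. It was the only member probe set of the 12 with groups apart in either comparison of the donor. In the comparison of the donor with no LIF, 6.4% of all probe sets tested were likewise higher without overlap, and 2.52% lower. In that of the donor with LIF 2.79% were higher and 3.19% lower. Between no LIF and LIF, where 0 member probe sets stood apart, the shares were 2.88% and 4.72%. The other Fgf17 probe set, 1456239_at, read 41.8, 49.1 and 28.3 with the donor, 16.9, 10.6 and 32.2 without LIF, and 24.8, 49.4 and 15.9 with LIF, and its groups overlapped.

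Eomes was the one factor above the array median everywhere, on all 9 arrays in both probe sets. Its brighter probe set, 1435172_at, read 64.2, 153 and 519 with the donor, 522, 54.1 and 39.9 without LIF, and 55.7, 144 and 56.9 with LIF. The other, 1426001_at, read 26.6, 50.2 and 354 with the donor, 373, 28 and 47.4 without LIF, and 29.2, 109 and 62.8 with LIF. In both, no LIF replicate 1 and the donor's replicate 3 stood well above the remaining 7 arrays.

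Mixl1, a homeodomain factor of the streak, split the arrays most plainly. It read 13.9, 116 and 210.1 with the donor, 228, 3.56 and 4.37 without LIF, and 3.84, 103 and 15.1 with LIF. The 4 arrays above their median were at 103 or more, and the other 5 were at 15.1 or less. Each group had arrays on both sides.

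The promoter of Eomes is shown because it holds the paired homeodomain half-sites TAAT and ATTA separated by 3 bases, a form bound by MIXL1-type factors in vitro. The 250 bases before the annotated start lie at chr9:118477939-118478188 of GRCm38.p6, plus strand, from RefSeq, with the matching letters in capitals.
Eomes promoter: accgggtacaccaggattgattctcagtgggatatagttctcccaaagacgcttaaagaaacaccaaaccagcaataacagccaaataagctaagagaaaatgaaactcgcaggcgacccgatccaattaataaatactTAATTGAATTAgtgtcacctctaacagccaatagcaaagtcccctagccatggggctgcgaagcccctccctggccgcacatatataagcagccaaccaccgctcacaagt
The match TAATTGAATTA lies at bases -111 to -101 from the start used by this promoter entry. The gene record itself begins at chr9:118478186, within the last bases shown. TAATNNNATTA occurs, on either strand, in 0.487% of the 32851 RefSeq promoters of 300 bases. A match is a description of letters and not evidence of binding.

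Gsc, Goosecoid, a homeodomain factor of the anterior streak, was close to the floor. It read 1.36, 4.41 and 20.3 with the donor, 22.7, 1.32 and 0.952 without LIF, and 1.08, 9.26 and 1.11 with LIF. Only replicate 3 with the donor and no LIF replicate 1 were above their median.

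Lhx1, a LIM homeodomain factor of the anterior streak and its endoderm, followed the same order in both probe sets for its 5 highest arrays. Probe set 1450428_at read 4.42, 15.1 and 66.2 with the donor, 53.8, 0.25 and 0.494 without LIF, and 0.943, 19.1 and 1.41 with LIF. Probe set 1421951_at read 11, 15.2 and 63.6 with the donor, 47.1, 0.742 and 0.681 without LIF, and 2.3, 16.7 and 0.724 with LIF. Both were above the median on replicate 3 with the donor, no LIF replicate 1 and LIF replicate 2, 1 array of each group.

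Evx1, an even-skipped homeodomain factor of the posterior streak, read 1.42, 79.5 and 88 with the donor, 73.4, 1.66 and 12.4 without LIF, and 2.79, 54.5 and 1.53 with LIF. Replicate 1 with the donor was its lowest array and replicate 3 with the donor its highest, so the donor group spanned the whole range.

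Mesp1 read 10.3, 71.2 and 75.2 with the donor, 56, 10.7 and 12 without LIF, and 14.9, 40.4 and 9.64 with LIF. The 4 arrays above their median were the same as for Mixl1 and Evx1, and the other 5 lay between 9.64 and 14.9. Its promoter is shown because it was the one member promoter with a T-box and TCF/LEF motif, the kinds of site that EOMES and WNT effectors bind. The window runs from 250 bases before the annotated start to 20 bases after it, at chr7:79793571-79793840 of GRCm38.p6, minus strand, from RefSeq, with the matching letters in capitals.
Mesp1 promoter: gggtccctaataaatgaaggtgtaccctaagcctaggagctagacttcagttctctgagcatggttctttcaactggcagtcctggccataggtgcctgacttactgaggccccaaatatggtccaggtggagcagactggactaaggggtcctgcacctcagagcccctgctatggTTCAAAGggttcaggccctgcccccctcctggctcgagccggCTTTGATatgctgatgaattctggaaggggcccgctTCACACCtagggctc
CTTTGAA stands on the reverse strand, read as TTCAAAG, at bases -73 to -67, CTTTGAT at -31 to -25 and the T-box letters TCACACC at 6 to 12 after the start. These motifs do not overlap, and on either strand CTTTGAA occurs in 5.14%, CTTTGAT in 3.73% and TCACACC in 3.98% of the 32851 promoters.

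Promoters were matched for 6 of the 9 genes, and Fgf8, Fgf17 and Mixl1 had no entry. The SMAD letters CAGACA, present in 21% of all promoters, matched that of Evx1 alone, on the reverse strand at bases -112 to -107. The FOXH1 letters ATCCACA and the Goosecoid-type letters TAATCC, present in 3.38% and 7.06% of promoters, matched none of the 6 windows. Wnt3, Gsc and Lhx1 matched no motif searched. No match says only that these letters are not in these windows.

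The first comparison sets cells with DETA/NO against untreated cells, both labelled as grown without LIF. Of the 9 genes, 0 passed the test, beside 0% of all 29811 probe sets (0 calls by limma at an adjusted p under 0.05, and 1498 at an unadjusted p under 0.05). The group difference on the log2(signal + 3) scale was above 0 for 9 of 9 genes, each read on its brightest probe set (8 after median centring, with Gsc at -0.03), and for 56% of all probe sets tested. The median was 1.01 over the genes and 0.08 over all probe sets. The genes ran from 0.26 for Gsc to 1.75 for Mixl1, with standard errors of 0.51 to 1.56 and limma adjusted p of 0.929 to 0.982.

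Fgf17 had the smallest p of the set. Its signal was 135 ± 55.7 with the donor and 57.6 ± 30.5 without LIF (SD, n = 3 arrays each). On the log2 scale that was 1.27 higher (SE 0.51, limma unadjusted p = 0.0304, adjusted p = 0.929). It was the 1 gene of 9 at an unadjusted p under 0.05, where 4.24% of all probe sets were higher with the donor and 0.782% lower. Its other probe set stood at 0.98 (SE 0.51, limma unadjusted p = 0.0812). Without no LIF replicate 2 the difference of the brighter probe set was 0.79, and without no LIF replicate 1 it was 1.62. After median centring it was 0.98 (SE 0.53), and with brightness as a block 0.97 (SE 0.59). Mixl1 averaged 113 ± 98.1 with the donor and 78.8 ± 129.6 without LIF (SD, n = 3) and differed by 1.75 on the log2 scale (SE 1.46, limma adjusted p = 0.929), which was 0.87 without no LIF replicate 2 and 3.44 without no LIF replicate 1. Fgf8 averaged 107 ± 86.7 with the donor and 93.6 ± 124 without LIF (SD, n = 3), at 1.33 (SE 1.56, limma adjusted p = 0.952). In both genes the SD of a group came close to its mean or passed it. The 2 probe sets of Eomes parted, at 0.7 (SE 0.97) for the brighter and -0.02 (SE 1.05) for the other.

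**Figure D2:**
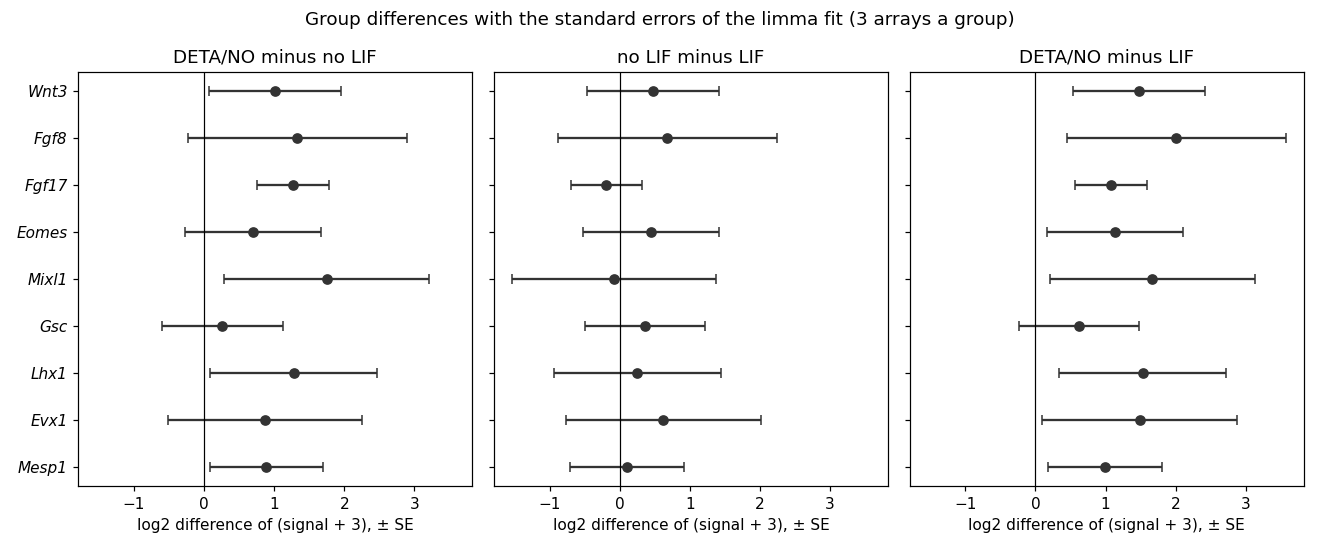
Group difference of each gene on the log2(signal + 3) scale (points) with the standard error of the limma fit (bars), for the 3 comparisons. All points lie above 0 for DETA/NO against no LIF and against LIF, at medians of 1.01 and 1.48 (Gsc against no LIF is at -0.03 after median centring), and 0 of the 9 genes passed the test in any panel.

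The sign of the donor difference was not the same at every passage. Each passage gives a single array per group, so passage and array cannot be told apart. At passage 31, 8 of 9 genes were lower with the donor and the median difference was -2.57, from -4.11 for Evx1 to 1.19 for Fgf17. At passages 33 and 34, 9 of 9 genes were higher, with medians of 2.48 and 2.56. Of all probe sets tested, 55.5%, 56.6% and 48.9% were higher with the donor at passages 31, 33 and 34. Fgf17 was higher with the donor at all 3 passages, by 1.19, 1.98 and 0.64 on the log2 scale.

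**Figure D3:**
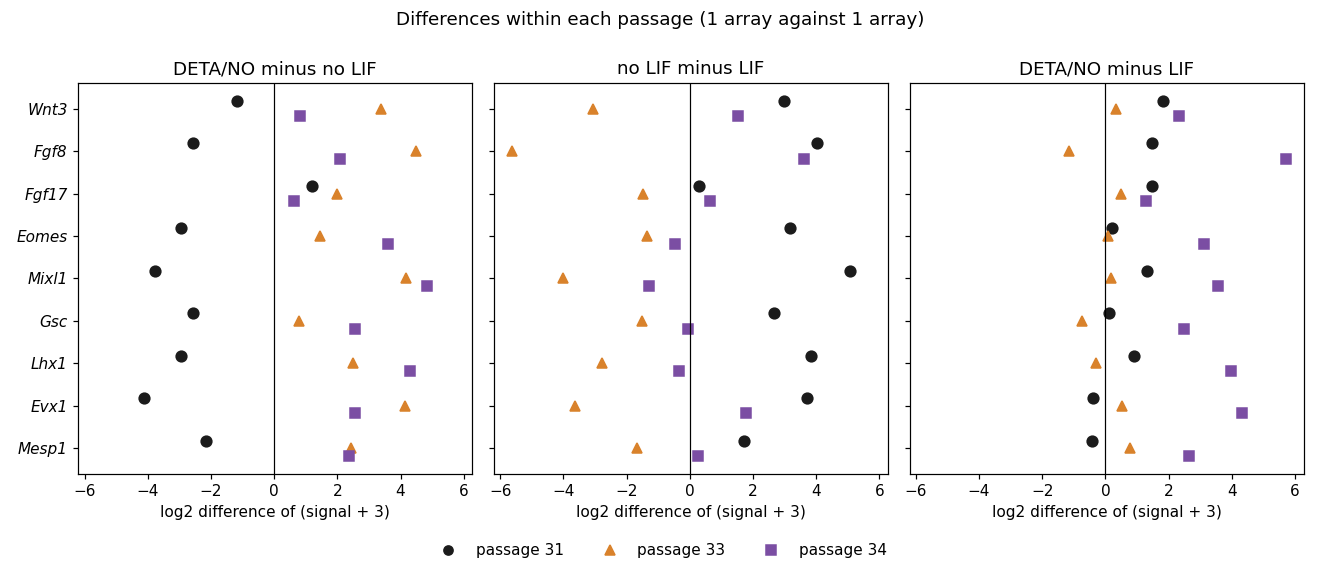
Difference of log2(signal + 3) between 2 arrays of one passage for each gene, with passages 31, 33 and 34 as circles, triangles and squares. For DETA/NO minus no LIF, 8 of 9 circles lie below 0 and all triangles and squares above it, and for no LIF minus LIF all 9 circles lie above 0 and all triangles below.

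Without both replicate 2 arrays whose Socs3 goes against the label, the member median of this comparison was 0.23, with 6 of 9 genes above 0, and Fgf8, Gsc and Evx1 stood at -0.28, -0.15 and -0.1. Leaving out no LIF replicate 2 alone gave the same 0.23. No LIF replicate 1 also moved it, to 1.83 when left out, as did replicates 1 and 3 with the donor, to 1.73 and 0.45. Without the closest pair of arrays it was 1.78. Both brighter arrays here are donor arrays, and with brightness as a block the median was 1.7. The no LIF group holds none of the brighter arrays, so this block cannot fully part brightness from the donor. The part of brightness in the result was not tested.

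The second comparison sets cells without LIF for 7 days against cells kept in it. Of the 9 genes, 0 passed the test, beside 0% of all probe sets (0 calls by limma, and 459 with p under 0.05 before adjustment, of which the higher make up 0.275% of all probe sets and the lower 1.26%, with 0 of the 9 genes among them). The difference was above 0 for 7 of 9 genes (9 after quantile normalization or median centring) and 42.7% of all probe sets, with medians of 0.36 and -0.1. Fgf8 stood highest at 0.68 (SE 1.56) and Fgf17 lowest at -0.19 (SE 0.51), with limma adjusted p = 0.973 for both. Eomes averaged 205 ± 274 without LIF and 85.5 ± 50.6 with LIF (SD, n = 3), at 0.44 (SE 0.97, limma adjusted p = 0.973). Its mean without LIF rests on replicate 1, at 522 against 54.1 and 39.9 in the same group.

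In this comparison, too, the single pairs of arrays at each passage differed in sign. At passage 31, 9 of 9 genes were higher without LIF with a median of 3.16. At passage 33, 9 of 9 were lower with a median of -2.77. At passage 34, 5 were higher and 4 lower with a median of 0.25. Mixl1 stood at 5.08, -4.01 and -1.3 in turn. Of all probe sets tested, 43.3%, 50.1% and 45.6% were higher without LIF at these passages.

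The sign of the member median depended on single arrays. It was -0.58 with 0 of 9 genes above 0 without no LIF replicate 1, -0.11 without LIF replicate 3, 0 without LIF replicate 1, and 0.9, 0.72 and 1.01 without no LIF replicate 2, no LIF replicate 3 and LIF replicate 2. Without both arrays whose Socs3 goes against the label it was 1.76 with 9 of 9 above 0, and with brightness as a block -0.07. Without the closest pair it was again -0.58, since only no LIF replicate 1 of that pair enters this comparison.

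The third comparison sets the donor without LIF against LIF, and shares its arrays with the other comparisons. Of the 9 genes, 0 passed the test, beside 0% of all probe sets (0 calls by limma, and 578 with p under 0.05 before adjustment, of which the higher make up 1.06% of all probe sets and the lower 0.876%, with 0 of the 9 genes among them). The difference was above 0 for 9 of 9 genes and for 52.2% of all probe sets, with medians of 1.48 and 0.02. Fgf8 stood at 2.01 (SE 1.56), Mixl1 at 1.67 (SE 1.46), Lhx1 at 1.53 (SE 1.19) and Gsc at 0.62 (SE 0.86), each with a limma adjusted p = 1. Fgf17 averaged 135 ± 55.7 with the donor and 61.4 ± 19.6 with LIF (SD, n = 3), at 1.08 (SE 0.51, limma unadjusted p = 0.058).

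By passage, 7, 6 and 9 of the 9 genes were higher with the donor than with LIF at passages 31, 33 and 34, with medians of 0.91, 0.16 and 3.12. The difference was widest at passage 34. Of all probe sets, 48.4%, 55.9% and 46.8% were higher. Leaving out replicate 3 with the donor gave a member median of 0.74, leaving out LIF replicate 2 gave 2.33 and leaving out LIF replicate 3 gave 0.82. It was again 2.33 without both arrays whose Socs3 goes against the label and 0.74 without the closest pair. These repeat the values above, since only LIF replicate 2 and the donor's replicate 3 of those arrays enter this comparison.

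Genes of the LIF response and of pluripotency were read beside the members on each array. Fgf5, a marker of the primed epiblast, and Dnmt3b, the de novo DNA methyltransferase of that state, also had their 4 highest signals on replicates 2 and 3 with the donor, no LIF replicate 1 and LIF replicate 2. Fgf5 read 82.6, 567, 521 and 56.6 there and 44.1 or less on the other 5 arrays. Dnmt3b read 3570.4, 3659, 4359.7 and 2062 there and 1915 or less elsewhere. Socs3 read 405, 127, 102 and 282 on these arrays. On the others it read 95.8 in replicate 1 with the donor, 3054 and 329.8 in no LIF replicates 2 and 3, and 3213 and 1794 in LIF replicates 1 and 3. Replicate 1 with the donor and no LIF replicate 3 thus had low Socs3 signals without high member signals. Klf4, a naive pluripotency factor, read 625, 233, 197 and 1062 on the 4 arrays and between 698 and 2542 on the other 5. Pou5f1 read 1096, 3044, 3211 and 1401 on the 4 arrays and between 958 and 2562 on the other 5. Its 2 highest signals were on no LIF replicate 1 and the donor's replicate 3. Nanog read 271, 896, 962 and 669 on the 4 arrays and between 539 and 1339.6 on the other 5. Of the 6 genes read, Fgf5 and Dnmt3b alone had the 4 arrays highest, a pattern of 3.27% of all probe sets tested.

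**Figure D4:**
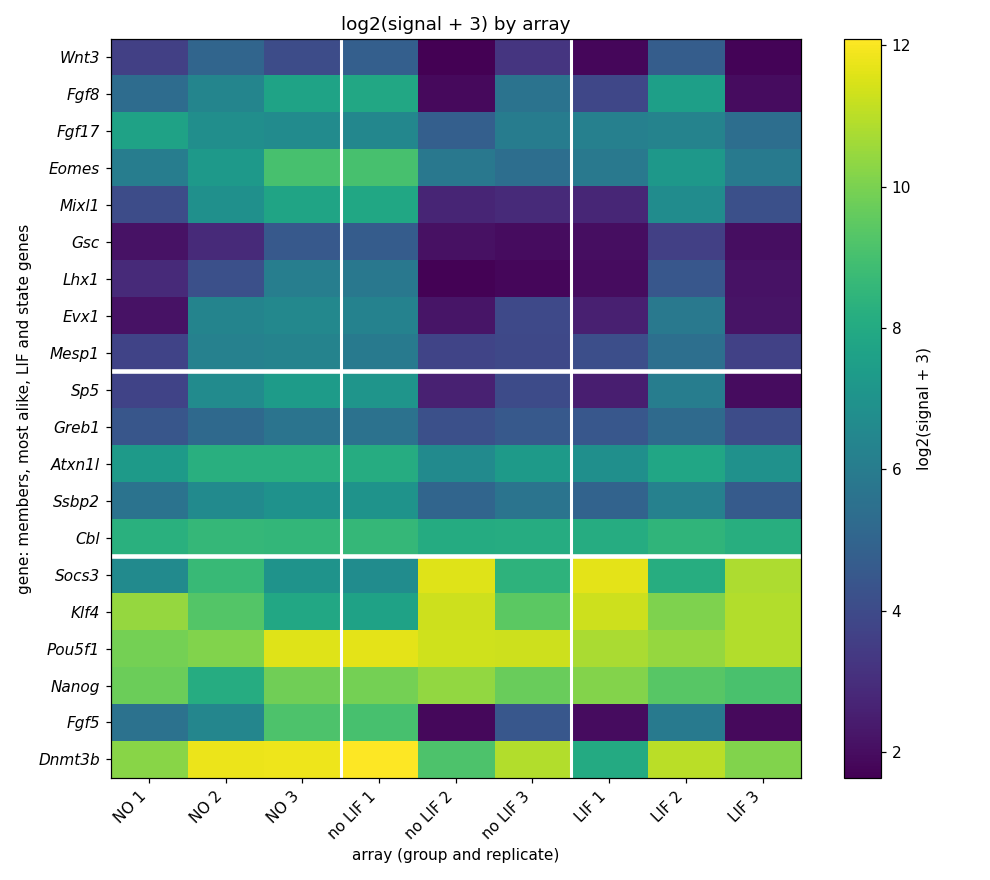
Colour gives log2(signal + 3) on each array (columns, by group and replicate) for the 9 members, the 5 genes most alike and 6 genes of LIF response and cell state (rows, parted by white lines). Columns NO 2, NO 3, no LIF 1 and LIF 2 are lighter than the rest in most rows of the upper blocks, and Socs3 is darkest in NO 1, NO 3 and no LIF 1.

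The 5 genes whose pattern was most like the mean of the members over the 9 arrays were Sp5, Greb1, Atxn1l, Ssbp2 and Cbl, with Pearson r of 0.983, 0.982, 0.973, 0.97 and 0.963. They were taken from 10960 genes, and the r is a measure of likeness with no test, over arrays that fall into high and low readings. Sp5, a zinc finger factor and WNT target of the streak, read 10.5, 98.8 and 162 with the donor, 131, 2.96 and 13.2 without LIF, and 2.66, 63.7 and 0.962 with LIF. Cbl, a ubiquitin ligase, spanned far less, from 268 to 389.

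Other genes of the streak and of the pathways upstream were counted from lists that share no gene with the 9 members. Like the members, these lists were chosen with earlier results of these data known, so their counts are no independent support. Of 25 tested genes of the streak and its mesoderm, 20 were above 0 for the donor against no LIF, 10 for no LIF against LIF and 11 for the donor against LIF, with medians of 0.23, -0.42 and -0.17. The sign of the first turned to -0.09 after quantile normalization and -0.07 after median centring, and without 1 array it ran from 0.04 to 0.43. The second ran from -0.63 to -0.01 and the third from -0.37 to 0.05 without 1 array. Called genes numbered 0 higher and 0 lower in each comparison, as they did in the 3 lists that follow. The brightest 3 were Bmp4, Fst and Cyp26a1, a mesoderm-inducing ligand, an activin antagonist and a retinoic acid hydroxylase. The sign of Bmp4 was opposite to that of most members, since for no LIF against LIF it stood at -1.79 (SE 0.6, limma adjusted p = 0.973). Fst and Cyp26a1 stood at 1.9 (SE 1.02) and 1.56 (SE 1.71) for the donor against no LIF, with limma adjusted p = 0.929 and 0.947.

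The 4 highest arrays of most member probe sets were also the 4 highest for 7 of these 25 genes, against 3.27% of all probe sets. The 7 were Fst, Cyp26a1, Aplnr, Sp5, Cdx2, Wnt8a and Nkx1-2. Cdx2 is also read below as a trophoblast marker. Wnt8a had a narrow margin, at 26.5 on LIF replicate 2 against 25.2 on no LIF replicate 3. Aplnr, the apelin receptor of early mesoderm, read 9, 165 and 249 with the donor, 131, 0.601 and 32.5 without LIF, and 0.857, 126 and 0.161 with LIF. The rest of the 25 had at least 1 other array among their 4 highest. Mesp2 was lowest on no LIF replicate 1, at 14.9, and highest on no LIF replicate 2, at 54.8. Pdgfra was highest on LIF replicate 3, at 509, and read 32.3 to 62.8 on the 4 arrays. Cer1, Cdx4, Hoxb1 and Tbx4 did not pass the filter on low values. The 4 arrays were taken from the members' own values, so the count of 7 is a description. The 7 genes were not tested as a list.

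In the Nodal pathway, 10 of 14 genes were above 0 for the donor against no LIF, 7 for no LIF against LIF and 10 for the donor against LIF, with medians of 0.21, -0.08 and 0.11. The first was -0.08 after median centring and -0.2 with brightness as a block, and ran from 0.03 to 0.7 without 1 array. The second was 0.16 and 0.14 in those settings and ran from -0.3 to 0.02, and the third was 0.07 and -0.1 and ran from -0.01 to 0.31. Nodal itself read 1408, 1211 and 541 with the donor, 595, 677 and 885 without LIF, and 1326, 658 and 655 with LIF. It was thus lowest on the 2 arrays where Eomes and Mixl1 were highest. Its co-receptor Tdgf1, also called Cripto, stood at -0.86 (SE 0.47) for the donor against no LIF and the shared signal mediator Smad4 at 0.19 (SE 0.3), with limma adjusted p = 0.929 and 0.965. Cfc1, the second co-receptor of this family, was the 1 gene of 14 with the 4 arrays of the members highest, against 3.27% of all probe sets tested.

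Receptors and feedback genes of FGF signalling, the pathway of Fgf8 and Fgf17, were above 0 in 8 of 13 for the donor against no LIF, 3 for no LIF against LIF and 4 for the donor against LIF, with medians of 0.2, -0.36 and -0.3. The first was -0.1 after median centring, -0.19 with brightness as a block and -0.05 without no LIF replicate 1. The other 2 stayed below 0 in those settings, and without 1 array they ran from -0.5 to -0.19 and from -0.51 to -0.06. The brightest were the ERK target Etv5 and the feedback inhibitors Spry2 and Il17rd, at -0.49 (SE 0.28), 0.31 (SE 0.31) and 0.65 (SE 0.4) for the donor against no LIF. Limma adjusted p was 0.929, 0.941 and 0.929. Spry1, a further feedback inhibitor, was the 1 gene of 13 with the 4 arrays of the members highest, against 3.27% of all probe sets tested.

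Receptors and feedback genes of WNT signalling, the pathway of Wnt3, were above 0 in 18 of 20 for the donor against no LIF, 7 for no LIF against LIF and 13 for the donor against LIF, with medians of 0.42, -0.25 and 0.22. The first was 0.13 after median centring and 0.17 with brightness as a block, and ran from 0.28 to 0.8 without 1 array. The second was -0.01 after centring and -0.02 after quantile normalization, and the third ran from 0.1 to 0.41 without 1 array. Ctnnb1, which encodes beta-catenin, the receptor Fzd7 and the repressor Tcf7l1 were the brightest, at -0.41 (SE 0.27), 0.46 (SE 0.71) and 0.38 (SE 0.46) for the donor against no LIF, with limma adjusted p = 0.929, 0.965 and 0.954. Axin2, Lef1 and Rspo3, 3 of the 20, had the 4 arrays of the members highest, against 3.27% of all probe sets tested. Axin2, a feedback target of beta-catenin, read 39.7, 137 and 95.5 with the donor, 85.5, 44.4 and 82 without LIF, and 40.1, 157 and 46.3 with LIF.

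Several members are also expressed outside the streak, so markers of other cell types were read on each array. Of 10 trophoblast markers, whose tissue also expresses Eomes, 4 were above the array median on all arrays and 2 on none. Their summed signal was 2353 to 7829 with the donor, 820.1 to 5731 without LIF and 727 to 5775 with LIF. The highest sums were on replicate 2 with the donor, LIF replicate 2 and no LIF replicate 3, at 7829, 5775 and 5731, and members were low on the last of these. On the other arrays with high members, the donor's replicate 3 and no LIF replicate 1, the sums were 2353 and 2017. The largest term of the sum was Krt8, an epithelial keratin, at 397 to 6535, and Krt7 (24.7 to 459), Tfap2c and Ascl2 were the others above the median on all arrays. Cdx2 and Gata3 were highest on LIF replicate 2, at 189 and 140.0, and next on the donor's replicate 2, at 106 and 76.1. The defining markers Elf5 and Tpbpa were above the median on 0 arrays, at most 7.76 and 8.4. Of 10 visceral endoderm markers, 5 were above the median on all arrays, and the sum was 327 to 536, 331 to 809.8 and 444 to 1779 in the same order of groups. The 5 were Cubn (27.4 to 687), Amn (29.4 to 466), Dab2 (60.1 to 289.6), Hhex and Sox17, and the first 3 were highest on LIF replicate 3. The defining markers Afp and Apoa1 were above the median on 0 arrays and Ttr on 1. Of 8 neural markers, 1, Tubb3 (28.1 to 82.2), was above the median on all arrays and 4 on none, with sums of 96 to 178, 70.2 to 114 and 125 to 170.0. Pax6 and Neurog2 were above it on 0 arrays, and Sox1 on 6, at most 55.7. The part of the marker genes with a signal in the member readings was not tested.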

How the data were processed

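Gene expression was measured on 9 arrays, 3 per group. Per the labels and the design text, the authors made the deposited signal intensities in GeneChip Operating System 1.4.0.036 by global scaling. MAS5 is named in the submitters' processing notes. Values were used on the log2(signal + 3) scale with no further normalization, so differences of dim probe sets are understated. The 64 control probe sets were left out, and a probe set entered the test where 3 or more of the 9 arrays had it at or above their own 40th percentile, which left 29811 and kept all 12 member probe sets.

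The 3 comparisons came from 1 fit over all 9 arrays with group as the only term (limma 3.58.1, R 4.3.3, eBayes with an intensity trend, two-sided), adjusted by Benjamini-Hochberg over all probe sets tested at a threshold of 0.05. The fit was tested on simulated data with noise drawn separately for each probe set and array. Such data lack patterns shared across arrays like those above, so that test says nothing about them. The brightest probe set stood for a gene. Members and lists were chosen with earlier results of these data known. Named genes were the 9 members, the brightest 3 and any called genes of each list, 6 genes of LIF response and cell state, and the 5 genes most alike. Other genes were named where their 4 highest arrays were those of the members, and Mesp2 and Pdgfra where they were not. These choices were made after their values were seen. The platform annotation gives 34945 probe sets 1 gene symbol and 932 several, and none was named from several. The genome build behind the probes is not given in the sources used here, and promoters are RefSeq's of GRCm38.p6. The number of arrays limits the precision, and log2 differences had a standard error of 0.5 at the median. Alternatives covered the pseudocount, filter, normalization, variance trend, arrays in the fit and blocks for passage and brightness.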

Additional observations from a re-analysis of the deposited data

How the results depend on the processing

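In each of the 3 comparisons limma called 0 probe sets under every alternative run, while those at an unadjusted p under 0.05 ran from 454 to 4219, 243 to 2326 and 248 to 1653. With passage as a replicate block, unadjusted p under 0.05 numbered 1602, 493 and 471 (1498, 459 and 578 without it), and the member medians stayed at 1.01, 0.36 and 1.48. The medians cannot move under this block, because each group has 1 array of each passage. The block changed no call. Replicate numbers stand for passages, but deviations of same-numbered arrays from their group means correlated above 0.1 in 3 of 9 pairs only (r from -0.6 to 0.65). Leaving out 1 array moved the member median to between 0.23 and 1.83 for the donor against no LIF, -0.58 and 1.01 for no LIF against LIF, and 0.74 and 2.33 for the donor against LIF. Median centring moved the median of all probe sets to -0.21, 0.15 and -0.02, against 0.08, -0.1 and 0.02, and the member medians to 0.72, 0.61 and 1.43. Centring shifts every probe set alike, so it leaves the gap between members and all probe sets as it was.

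Single genes, none of them called, changed sign as follows, and the cause was not tested. For the donor against no LIF, Gsc was -0.03 after median centring. Without 1 array, Fgf8 ran from -0.28 to 2.7, Eomes from -0.09 to 1.83, Gsc from -0.42 to 1.14 and Evx1 from -0.1 to 2.3. Without both arrays whose Socs3 goes against the label, Fgf8, Gsc and Evx1 were -0.28, -0.15 and -0.1. For no LIF against LIF, Mixl1 was 0.14 with a pseudocount of 16, 0.09 after quantile normalization, 0.17 after median centring and 1.89 without both replicate 2 arrays, where Fgf17 was 0.02 (quantile), 0.06 (centring) and 0.46. Without 1 array, Wnt3 ran from -0.31 to 1.45, Fgf8 from -0.7 to 2.29, Fgf17 from -0.54 to 0.29, Eomes from -0.7 to 1.11, Mixl1 from -1.76 to 1.01, Gsc from -0.51 to 0.89, Lhx1 from -1.11 to 1.05, Evx1 from -0.44 to 1.79 and Mesp1 from -0.58 to 0.61. Without the closest pair they were -0.31 for Wnt3, -0.7 for Fgf8 and for Eomes, -0.51 for Gsc, -1.11 for Lhx1, -0.44 for Evx1 and -0.58 for Mesp1. Of that pair only no LIF replicate 1 enters this comparison. With brightness as a block Eomes was -0.07, Gsc -0.11, Lhx1 -0.4 and Mesp1 -0.18. For the donor against LIF, Gsc was -0.05 without the closest pair and ran from -0.05 to 1.16 without 1 array.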
